A study of Mus musculus with 24 samples.

Results

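The constitutive proteasome genes were followed in 8 lines of B16-F10-luc2 mouse melanoma cells. Members were the rows of the table of normalised counts whose symbol starts with Psm, then a letter from a to g and a digit. The rule left out the interferon-induced subunits. Of 12010 genes in the table, 48 symbols matched, 4 of them interferon-induced (Psmb9, Psmb10, Psme1 and Psme2), so 44 members remained; Psmb8 was not analysed here. The core particle had 14 members, 7 of the alpha type and 7 of the beta type. The regulatory particle had 17 members, 9 of the base and 8 of the lid. A further 4 members were chaperones that build the core (Psmg1 to Psmg4), 3 were chaperones that build the base (Psmd5, Psmd9 and Psmd10) and 3 were activators or an inhibitor (Psme3, Psme4 and Psmf1). The last 3, Psmc3ip, Psme3ip1 and Psme2b, matched by their symbol and were not counted as proteasome subunits.

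B16-F10 is a melanoma line of the C57BL/6 mouse, and luc2 is a firefly luciferase gene that the cells carry. The 8 lines were the parental B16-F10-luc2 cells, labelled WT, and lines in which the genes of the related transcription factors MITF, TFEB and TFE3 had been knocked out (KO): MITF KO, TFE3 KO, TFEB KO, the TFEB/TFE3, MITF/TFE3 and MITF/TFEB double knockouts (DKO) and the triple knockout (TKO). All were grown in DMEM with 10% FBS, without further treatment according to the labels, and all carried luc2. KO cells were made with CRISPR guides and isolated as clones, so a difference between a KO line and the parental cells holds the effect of the lost gene together with whatever else sets that clone apart, and these cannot be told apart here. The same holds for differences between KO lines and for contrasts of such differences. Each line had 3 libraries. The labels do not say that these came from separate cultures, so p-values measure only the spread between these libraries.

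The proteasome is the protease that degrades most short-lived and misfolded proteins in the cytoplasm and nucleus. Proteins tagged with ubiquitin are bound, stripped of ubiquitin and unfolded by the regulatory particle, whose base is a ring of ATPases, and are threaded into the barrel-shaped core particle, where 3 of the beta subunits cut them. The subunits are needed in fixed proportions, and their genes are known to share regulators, among them the transcription factor NRF1 (Nfe2l1), which raises their transcription when the proteasome is short.

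Libraries were made from messenger RNA with a kit that reads its 3′ end, and held between 18300902 and 26667877 reads counted in genes. Values are reads of a gene scaled to a common library size (CPM) with factors from the trimmed mean of M-values (TMM), as deposited. Since a transcript gives reads from its end only, CPM is not expected to grow with transcript length, and levels of different genes are compared as CPM with that in mind; every member had at least 173 reads in each library, and libraries of a line differed by more than counting error (chi-square of at least 4.61 per degree of freedom). All 8 melanocyte markers were detected in every library, some at high levels (Sox10 between 632 and 1121 CPM, Dct between 12715 and 29472 CPM) and others down to a few CPM (Tyr between 7.66 and 154 CPM, Gpr143 between 2.28 and 20.1 CPM). Of the markers of other cells, Krt14 lay between 0 and 19.3 CPM, Pecam1 between 0 and 31.6, Col1a1 between 0.135 and 7.84 and Pdgfrb between 1.247 and 10.1; their part in the results was not tested. Tfeb was between 2.06 and 5.27 CPM in the lines without TFEB and between 7.87 and 10.3 CPM in parental cells. Tfe3 was between 8.01 and 14.4 CPM in TFE3 KO, TFEB/TFE3 DKO and MITF/TFE3 DKO and between 17.6 and 21.7 CPM in TKO, against 35.4 to 38.4 CPM in parental cells. Mitf RNA was between 1358 and 1470.5 CPM in MITF KO against 763 to 797 CPM in parental cells; that line was made by a frameshift, so RNA level does not check its label.

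Libraries of the same line also differed along a shared axis, and this touched the members unequally. The first component of the deviations of libraries from their line means, over 9539 genes with a mean of at least 5 CPM, held 51.5% of the variance within lines and the next 9.28%. From the lowest to the highest library on it, the fitted log2 level rose by 1.90 for Psma5, 1.46 for Psmd14, 1.21 for Psma1 and 1.17 for Psmb2. It went the other way for Psmd4 (−0.84), Psmd13 (−0.83), Psmc5 (−0.75) and Psmc1 (−0.63). The 3 MITF KO libraries scored −0.69, −1.58 and −0.62 SD on this axis and the 3 TKO libraries 0.29, 0.68 and 0.92 SD. Its origin was not tested; calls with the axis taken out, an alternative chosen after seeing the data, are given where they differ.

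**Figure D1:**
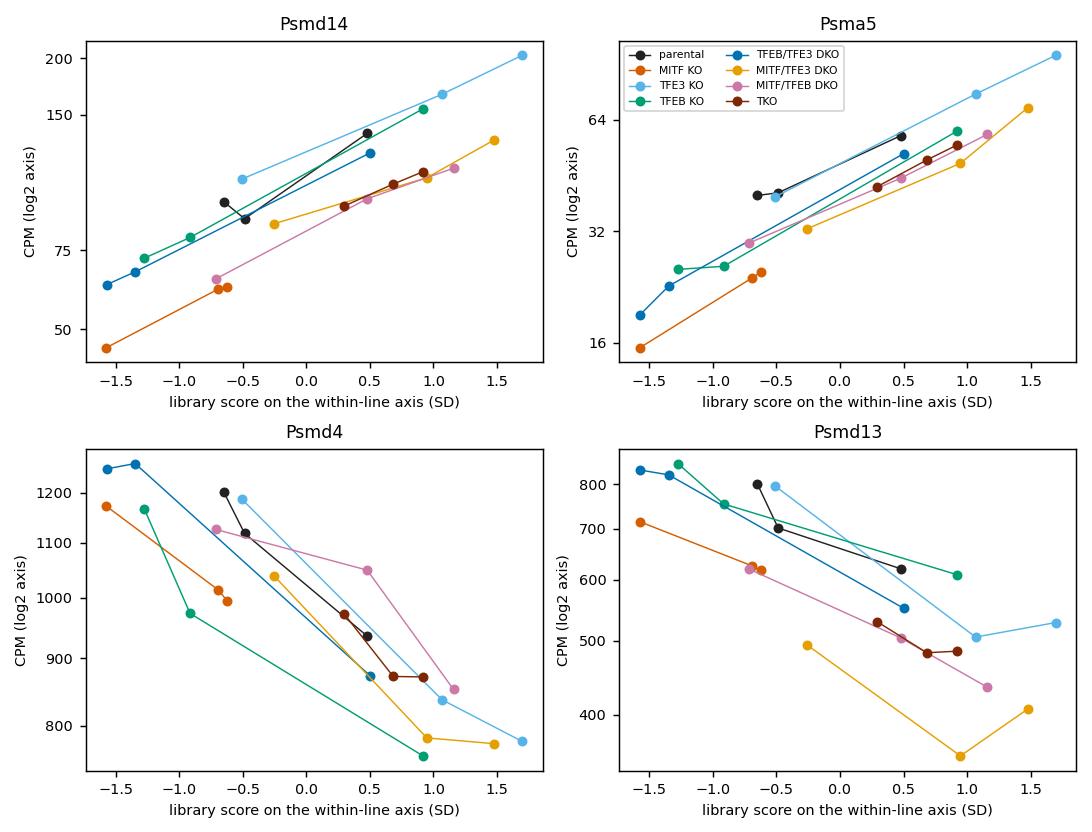
CPM (log2 axis) of Psmd14, Psma5, Psmd4 and Psmd13 against the score of each of the 24 libraries on the main axis of variation within lines, in SD; points are libraries, coloured by line, and lines join the 3 libraries of a line. Psmd14 and Psma5 mostly climb with the score and Psmd4 and Psmd13 mostly go down with it, within lines as well as between them.

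Members were mostly lower in the lines without MITF. In the lines that kept it fewer were called, as were fewer of all genes. Each KO line was compared with the same 3 parental libraries by limma on log2(CPM + 1), and a member was called at a Benjamini-Hochberg adjusted p under 0.05 over all 12010 genes; fold changes on this scale slightly understate those of the lowest members. In MITF KO 22 of 44 members fell and none rose, where 17.8% of all genes fell and 20.1% rose. MITF/TFE3 DKO had 18 members that fell and 3 that rose, beside 21.7% and 20.2% of all genes. In MITF/TFEB DKO 26 fell and 2 rose, beside 27.3% and 28.8%, and in TKO 26 fell and 2 rose, beside 27.9% and 28.3%. The median log2 difference over the 44 members was −0.31 in MITF KO, −0.25 in MITF/TFE3 DKO, −0.33 in MITF/TFEB DKO and −0.26 in TKO, while the median over all genes lay between 0.00 and 0.02 in these comparisons.

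The lines with MITF showed few calls, among all genes as well as among members. In TFE3 KO 2 members fell and 1 rose, beside 7.78% and 4.5% of all genes, in TFEB KO 3 fell and 2 rose, beside 2.59% and 2.25%, and in TFEB/TFE3 DKO 7 fell and 2 rose, beside 4.09% and 4.72%. The medians over members were −0.04, −0.06 and −0.16 on the log2 scale. These counts moved with the choice of libraries: in TFE3 KO 5 members were called without its replicate 1 or its replicate 3. In TFEB KO 3 were called without parental replicate 1, and 2 without parental replicate 2, parental replicate 3 or TFEB KO replicate 3. In TFEB/TFE3 DKO 5 were called without parental replicate 2 or 3 and 4 without TFEB/TFE3 DKO replicate 1.

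The changes were modest in size. At a minimum fold of 2 with an unadjusted p below 0.05, 2 members passed in MITF KO (6.28% of all genes), 0 in TFE3 KO (1.71%), 0 in TFEB KO (0.783%), 0 in TFEB/TFE3 DKO (0.958%), 0 in MITF/TFE3 DKO (5.87%), 2 in MITF/TFEB DKO (13.7%) and 2 in TKO (14.7%). Across all 8 lines 38 of the 44 members varied by limma's F test, where 86.6% of all genes did; the 6 that did not pass were Psma1, Psmb4, Psmc5, Psmd4, Psmg1 and Psme4. For 41 of the 44 members the lowest line mean was that of a line without MITF, as it was for 60.1% of all genes. The SD within lines was 0.13 at the median member and 0.16 at the median gene with a mean of at least 5 CPM, and the range of line means was 0.68 and 0.79 on the log2 scale.

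**Figure D2:**
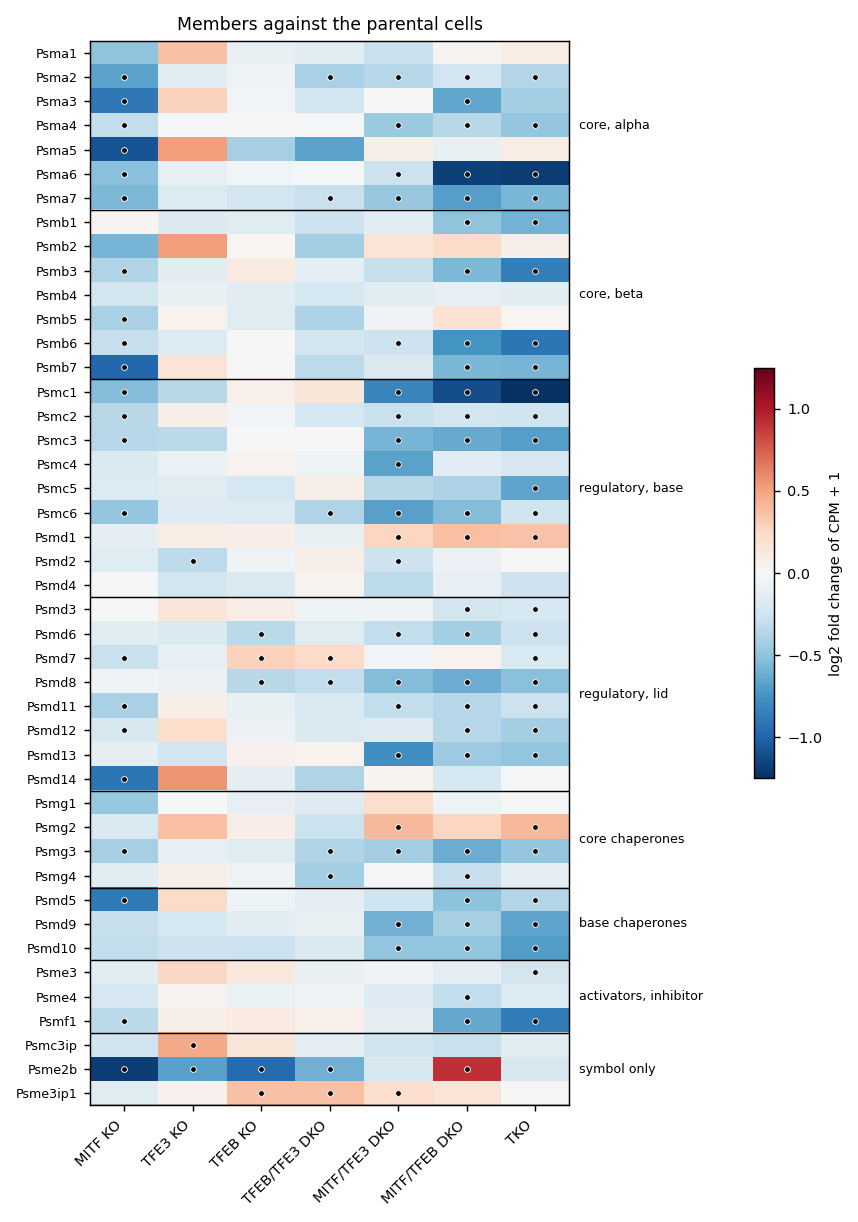
Log2 fold change against the parental line of the 44 members (rows, grouped by role) in the 7 KO lines (columns), with called differences marked. Blue cells, lower than parental, fill most of the 4 columns without MITF, where 22, 18, 26 and 26 members fell. In the 3 columns with MITF called differences are sparse, though the median over members is below parental there too.

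The same 11 members fell in every line without MITF, namely Psma2, Psma4, Psma6, Psma7, Psmb6, Psmc1, Psmc2, Psmc3, Psmc6, Psmd11 and Psmg3, 11 of 44 where 6.19% of all genes fell in each of the 4. A further 10 fell in 3 of these lines, 4 in 2, 10 in 1 and 9 in none. The 4 comparisons share their parental libraries and the 3 other lines carry the MITF loss too, so these counts are not independent of each other. According to the paper, further factors were removed from the MITF KO cells themselves. Any other trait of that line would therefore recur in all 4, and it cannot be told apart from the loss of MITF. Of the 11, 5 belong to the core and 5 to the regulatory particle, and Psmg3 is a chaperone of core assembly. Psma4, Psma7, Psmc1, Psmc6 and Psmg3, 5 of the 11, kept all 4 calls when each library was left out in turn, while the others lost a call in at least 1 line: Psma2 and Psmc2 in MITF/TFEB DKO, Psmc2 and Psmd11 in TKO, Psmc3 and Psmb6 in MITF KO, and Psma6 and Psmb6 in MITF/TFE3 DKO. Psma5, Psmb5 and Psmd14 fell in MITF KO and in no other line without MITF.

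Promoter sequences are shown for members that fell together in all 4 lines without MITF (Psma4, Psmb6 and Psmc1) and for the catalytic subunit Psmb5, which did not. MITF, TFEB and TFE3 bind the palindrome CACGTG and the related CATGTG, and NRF1 binds antioxidant-type elements of the form TGACNNNGC. RefSeq entries on GRCm38.p6, from 250 bases before to 50 after the transcript start, were found for 37 members (40 promoters; Psmb1, Psmb2, Psmb7, Psmc3, Psmd3, Psmd7 and Psmg2 had no entry). Capitals mark a match to a motif on either strand, so CATGTG on the other strand reads CACATG.
Psma4, chr9:54950609-54950908, plus strand: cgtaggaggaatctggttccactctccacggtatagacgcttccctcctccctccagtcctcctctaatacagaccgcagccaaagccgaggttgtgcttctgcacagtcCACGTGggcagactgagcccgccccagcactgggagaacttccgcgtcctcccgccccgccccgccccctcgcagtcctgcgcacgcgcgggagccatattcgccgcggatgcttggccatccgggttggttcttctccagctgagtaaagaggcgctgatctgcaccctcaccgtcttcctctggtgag
Psmb6, chr11:70525107-70525406, plus strand: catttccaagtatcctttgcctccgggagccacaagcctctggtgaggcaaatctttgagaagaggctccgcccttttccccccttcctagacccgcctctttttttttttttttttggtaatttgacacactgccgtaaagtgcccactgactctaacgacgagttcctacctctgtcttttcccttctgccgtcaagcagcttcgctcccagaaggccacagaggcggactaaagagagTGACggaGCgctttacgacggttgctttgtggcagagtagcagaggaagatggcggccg
Psmb5, chr14:54617946-54618245, minus strand: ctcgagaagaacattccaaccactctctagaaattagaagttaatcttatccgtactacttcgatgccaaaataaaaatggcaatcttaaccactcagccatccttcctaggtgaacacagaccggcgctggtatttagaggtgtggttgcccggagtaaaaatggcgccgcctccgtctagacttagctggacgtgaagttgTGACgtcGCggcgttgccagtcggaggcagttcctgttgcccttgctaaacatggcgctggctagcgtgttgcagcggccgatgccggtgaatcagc
Psmc1, chr12:100109952-100110251, plus strand: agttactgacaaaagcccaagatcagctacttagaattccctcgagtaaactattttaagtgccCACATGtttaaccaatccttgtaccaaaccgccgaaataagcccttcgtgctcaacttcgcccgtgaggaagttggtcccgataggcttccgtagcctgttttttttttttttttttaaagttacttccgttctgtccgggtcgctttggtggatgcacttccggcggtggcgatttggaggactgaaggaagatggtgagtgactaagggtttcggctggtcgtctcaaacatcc
In these, Psma4 held CACGTG, Psmc1 held CATGTG on the other strand, and Psmb6 and Psmb5 held TGACNNNGC. Over all member promoters, CACGTG occurred in 4 of 40 (10%; Psma4, Psmd9, Psme3 and Psme3ip1), against 7.15% of the 32851 promoters of the table. CATGTG occurred in 5 (12.5%; Psma2, Psmb4, Psmc1, Psme3 and Psme3ip1) against 14.2%, and TGACNNNGC in 6 (15%; Psmb5, Psmb6, Psmc6, Psmd12, Psmd9 and Psme4) against 12.4%. A match is a description of the sequence and not a binding site. Of the members with a match, Psma2, Psma4, Psmb6, Psmc1 and Psmc6 fell in all 4 lines without MITF and Psmb4 and Psme3ip1 in none of them. Of the other members that fell in all 4, Psma6, Psma7, Psmc2, Psmd11 and Psmg3 held none of the 3 motifs and Psmc3 had no entry.

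In the core particle the catalytic subunits did not move alike. Psmb6 carries the caspase-like activity, Psmb7 the trypsin-like and Psmb5 the chymotrypsin-like activity. Psmb6 (chromosome 11, 70416183 to 70418684, build GRCm39, known as mm39) measured 418, 473 and 444 CPM in parental cells, 357, 386 and 346 in MITF KO, 387, 388 and 342 in MITF/TFE3 DKO, 284, 266 and 245 in MITF/TFEB DKO and 244, 234 and 231 in TKO. Its libraries lay below all parental ones in each of these 4 lines, and lowest where TFEB was lost as well. The log2 fold change was −0.29 ± 0.09 (SE; limma, adjusted p = 0.0124) in MITF KO, −0.26 (0.0241) in MITF/TFE3 DKO, −0.74 ± 0.09 (2.43e-07) in MITF/TFEB DKO and −0.91 ± 0.09 (9.69e-09) in TKO. In the lines with MITF it measured 453, 395 and 344 CPM in TFE3 KO, 451, 439 and 434 in TFEB KO and 389, 349 and 401 in TFEB/TFE3 DKO, and was not called.

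Psmb7 (chromosome 2, 38478044 to 38534099) measured 285, 294 and 371 CPM in parental cells and 176, 129 and 175 in MITF KO, where every library was under the parental range, a log2 change of −0.98 ± 0.16 (adjusted p = 3.38e-05). It measured 179, 226 and 234 CPM in MITF/TFEB DKO (−0.57, adjusted p = 0.00412) and 193, 222 and 215 in TKO (−0.58, adjusted p = 0.00336). The MITF/TFE3 DKO values of 317, 268 and 253 CPM overlapped the parental ones and Psmb7 was not called (−0.18, adjusted p = 0.392). In the lines with MITF it differed by 0.16 in TFE3 KO, −0.01 in TFEB KO and −0.33 in TFEB/TFE3 DKO, none called.

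Psmb5 (chromosome 14, 54850776 to 54855481) measured 57.9, 59.0 and 66.3 CPM in parental cells and 48.3, 38.4 and 51.4 in MITF KO, a log2 change of −0.41 ± 0.13 (limma, adjusted p = 0.0185). That call was lost without parental replicate 3 (adjusted p = 0.0818) or without MITF KO replicate 2 (0.129). In MITF/TFE3 DKO (67.1, 55.5 and 55.6 CPM), in MITF/TFEB DKO (63.0, 73.6 and 71.1) and TKO (62.0, 62.8 and 61.5) the values overlapped the parental ones and none was called. In TFEB/TFE3 DKO, which kept MITF, it measured 43.2, 52.7 and 43.5 CPM, all below the parental libraries, a change of −0.39 ± 0.13 that missed the threshold (adjusted p = 0.0716) and passed it without TFEB/TFE3 DKO replicate 2 (0.0341). In TFE3 KO and TFEB KO Psmb5 differed by 0.04 and −0.15 and was not called. The calls of Psmb6 in MITF KO and MITF/TFE3 DKO also rested on few libraries: in MITF KO the adjusted p was 0.0635 without parental replicate 2 and 0.0543 without MITF KO replicate 3. For MITF/TFE3 DKO it was 0.108 without parental replicate 2, 0.0521 without parental replicate 3 and 0.12 without MITF/TFE3 DKO replicate 3.

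**Figure D3:**
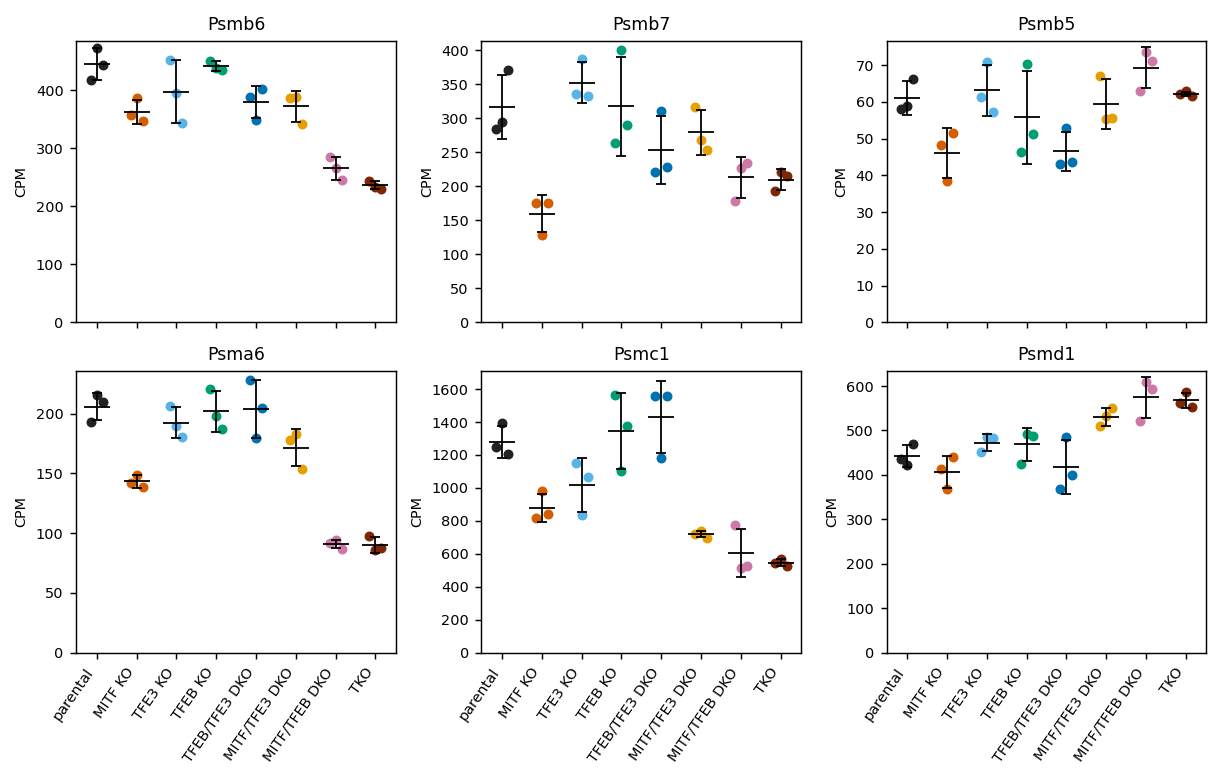
CPM in each of the 24 libraries for Psmb6, Psmb7, Psmb5, Psma6, Psmc1 and Psmd1, by line; points are libraries, horizontal lines the mean and bars 1 SD (n = 3). Psmb6, Psma6 and Psmc1 are lowest in MITF/TFEB DKO and TKO, Psmb7 is lowest in MITF KO, Psmb5 overlaps the parental libraries in the 3 lines that lost MITF with another factor, and Psmd1 is highest in those 3 lines.

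Of the 7 alpha subunits, which form the outer rings and the gate of the core, 6 fell in MITF KO, 4 in MITF/TFE3 DKO, 5 in MITF/TFEB DKO and 4 in TKO. The shares of all genes that fell were 17.8%, 21.7%, 27.3% and 27.9% in the same order. Psma6 (chromosome 12, 55431007 to 55467094) measured 193, 215 and 209 CPM in parental cells, 142, 149 and 139 in MITF KO and 178, 183 and 154 in MITF/TFE3 DKO. In MITF/TFEB DKO it measured 91.9, 94.1 and 87.1 CPM and in TKO 98.0, 85.6 and 87.2, less than any library of the other 6 lines. The log2 fold changes there were −1.17 ± 0.09 (limma, adjusted p = 2.17e-10) and −1.18 ± 0.09 (1.52e-10), against −0.52 (9.27e-05) in MITF KO. The change in MITF/TFE3 DKO was −0.26 (adjusted p = 0.0233), a call lost without parental replicate 2 (0.0886), parental replicate 3 (0.0626) or MITF/TFE3 DKO replicate 3 (0.135).

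Psma7, the most abundant core subunit, measured 903, 971 and 939.8 CPM in parental cells and between 566 and 717 CPM in the 12 libraries without MITF. It fell by 0.56, 0.47, 0.69 and 0.57 on the log2 scale in the order MITF KO, MITF/TFE3 DKO, then MITF/TFEB DKO and TKO, with the least significant adjusted p at 2.36e-05. Psma4 fell by 0.30, 0.46, 0.35 and 0.49 in the same order, from 219.8, 238 and 229 CPM in parental cells to 157, 159 and 174 in TKO. Both were below the parental range in all 12 of these libraries.

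Of the alpha subunits Psma5 had the widest spread within lines (SD 0.53 on the log2 scale), followed by Psma1 (0.35), which was called in no line, and Psma3 (0.26). Psma5 measured 40.6, 40.0 and 58.0 CPM in parental cells and 23.9, 15.5 and 24.8 in MITF KO (log2 −1.08 ± 0.37, adjusted p = 0.0235), but within TFEB KO alone it ranged from 25.2 to 59.5 CPM. The MITF KO call was lost without parental replicate 3 (−0.91, adjusted p = 0.0999) or MITF KO replicate 2 (−0.88, adjusted p = 0.11), and with the within-line axis taken out the change was −0.65 and 34 members were called in that line, all lower, beside 54.1% of 9539 genes in either direction and 28.5% lower. Psma5 also shares 54.6% of the 50-base words of its 3′ end with the pseudogenes Psma5-ps and Gm12989, so reads of these may not have been told apart. Psma3 fell from 144, 145 and 169 CPM to 84.8, 66.5 and 96 in MITF KO (−0.89, adjusted p = 0.000502) and to 81.0, 101 and 112 in MITF/TFEB DKO (−0.65, adjusted p = 0.00483), and was not called in MITF/TFE3 DKO (175, 129 and 156 CPM).

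In the base of the regulatory particle, 4 of 9 members fell in MITF KO, 6 in MITF/TFE3 DKO, 4 in MITF/TFEB DKO and 5 in TKO, and 1 rose in each of the last 3. Of all genes 17.8%, 21.7%, 27.3% and 27.9% fell in these lines, and 20.2%, 28.8% and 28.3% rose in the last 3. Psmc1 (chromosome 12, 100076404 to 100090692), an ATPase of the base and the most abundant member of both particles, measured 1248, 1391 and 1204 CPM in parental cells, 817, 979 and 840.2 in MITF KO and 722, 738 and 698 in MITF/TFE3 DKO. In MITF/TFEB DKO it measured 775, 514 and 524 CPM and in TKO 543, 566 and 524, and none of these 12 libraries reached the parental range. The log2 fold changes were −0.55 (limma, adjusted p = 0.0059), −0.83 ± 0.15 (0.000119), −1.11 ± 0.15 (1.37e-06) and −1.23 ± 0.15 (2.65e-07). In TFEB KO (1564, 1102 and 1374 CPM) and TFEB/TFE3 DKO (1556, 1179 and 1559.9) it overlapped the parental range and was not called.

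The other ATPases divided. Psmc2, Psmc3 and Psmc6 fell in all 4 lines without MITF, Psmc6 most in MITF/TFE3 DKO (143, 123 and 127 CPM against 202, 218 and 208; −0.68, adjusted p = 8.82e-08). Psmc6 also fell in TFEB/TFE3 DKO (164, 165 and 153 CPM; −0.38, adjusted p = 0.0012). Psmc4 fell in MITF/TFE3 DKO only among the calls, to 204, 251 and 195 CPM from 349, 374 and 311 (−0.67, adjusted p = 0.000357), and its level in MITF/TFEB DKO, 349, 326 and 266 CPM, overlapped the parental one. That difference between the 2 DKO lines was itself called, at 0.53 ± 0.13 (adjusted p = 0.0024) for MITF/TFEB DKO minus MITF/TFE3 DKO, but with the median of the 100 nearest genes subtracted it was −0.03 and not called (adjusted p = 0.838).

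The non-ATPase subunits of the base behaved otherwise. Psmd1, a scaffold of the base, was the only subunit of either particle that rose in a line without MITF: it measured 435, 422 and 469 CPM in parental cells, 509.9, 532 and 551 in MITF/TFE3 DKO, 522, 608 and 594 in MITF/TFEB DKO and 562, 588 and 554 in TKO. All 9 libraries were above the parental ones, and the log2 changes were 0.26, 0.38 and 0.36 (adjusted p = 0.0269, 0.00163 and 0.00228). The call in MITF/TFE3 DKO was lost without 4 of the 6 libraries, with an adjusted p of 0.0717 and 0.098 without parental replicates 1 and 2 and 0.0563 and 0.0857 without MITF/TFE3 DKO replicates 2 and 3. Psmd1 shares 72.5% of its 3′ 50-base words with the overlapping gene model Gm21972 on the same strand, so the reads of these cannot be told apart. Psmd4, a receptor for ubiquitin chains, measured 1118, 1202 and 935 CPM in parental cells and was called in no line, with log2 differences from −0.33 to 0.05. Psmd2, the other scaffold, fell in TFE3 KO from 446, 428 and 409.7 CPM to 339, 347 and 336 (−0.33 ± 0.06, adjusted p = 0.00132) and in MITF/TFE3 DKO (−0.26, adjusted p = 0.00284). It shares 34.3% of its 3′ 50-base words with Gm5422 and Gm63653, so reads of these may not have been told apart.

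In the lid, 4 of 8 members fell in MITF KO, 4 in MITF/TFE3 DKO, 6 in MITF/TFEB DKO and 7 in TKO, beside 17.8%, 21.7%, 27.3% and 27.9% of all genes. Psmd14, the deubiquitinase that removes ubiquitin from bound proteins, measured 88.1, 96 and 136 CPM in parental cells and 61.4, 45.5 and 61.9 in MITF KO (−0.90 ± 0.28, adjusted p = 0.0152). It lost that call without parental replicate 3 (−0.71, adjusted p = 0.0888) or MITF KO replicate 2 (−0.76, adjusted p = 0.0748). In MITF/TFE3 DKO (132, 85.8 and 109 CPM), in MITF/TFEB DKO (64.7, 97.5 and 114) and TKO (93.9, 105 and 112) it overlapped the parental values; with the axis taken out it was lower and called in all of these, at −0.39, −0.46 and −0.40. In the lines with MITF Psmd14 differed by 0.55 in TFE3 KO, −0.12 in TFEB KO and −0.38 in TFEB/TFE3 DKO, none called (adjusted p of at least 0.22).

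Psmd8 was near its parental level of 1022, 1123 and 1129.9 CPM in MITF KO (1075, 992 and 1082; −0.06, adjusted p = 0.654) and fell in MITF/TFE3 DKO (847, 672 and 729.7 CPM; −0.55, adjusted p = 3.88e-05), in MITF/TFEB DKO (669, 748 and 719; −0.62, 3.71e-06) and TKO (766, 728 and 781; −0.52, 2.89e-05). It fell as well in TFEB KO (875, 958 and 759 CPM; −0.34, adjusted p = 0.0248), where the adjusted p was 0.103, 0.101 and 0.19 without parental replicate 2, parental replicate 3 and TFEB KO replicate 3. Psmd6 fell in TFEB KO too (134, 106 and 103 CPM against 147, 149 and 135; −0.34, adjusted p = 0.0425), a call lost in 5 of the 6 cases of 1 library left out (0.0528 to 0.233). Psmd13 fell in MITF/TFE3 DKO to 407, 493 and 354 CPM from 701, 800.1 and 620.1 (−0.76, adjusted p = 0.00143), with every library below the parental ones. Psmd7 went the other way in the lines that lost TFEB but kept MITF: it rose from 450.4, 470.3 and 473 CPM to 591, 535 and 575 in TFEB KO (0.29, adjusted p = 0.0251) and to 578, 522 and 547 in TFEB/TFE3 DKO (0.24, adjusted p = 0.0473). Without parental replicate 1 these adjusted p were 0.11 and 0.142, and leaving out parental replicate 2 or 3 lost both calls too.

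Core and regulatory particle were then compared by the summed CPM of their members. The core sum was 5085 ± 220.3 CPM (SD, n = 3) in parental cells, 3761 ± 15.2 in MITF KO, 4239 ± 361.5 in MITF/TFE3 DKO, 3758 ± 116 in MITF/TFEB DKO and 3600 ± 49.0 in TKO. Relative to parental cells these were differences of −26.0%, −16.6%, −26.1% and −29.2%, and all 12 libraries lay below the lowest parental one, at 4856 CPM. The regulatory sum was 9078 ± 521 CPM in parental cells and differed by −13.9% in MITF KO, −24.5% in MITF/TFE3 DKO, −22.5% in MITF/TFEB DKO and −25.9% in TKO, again without overlap. In TFEB/TFE3 DKO the core sum differed by −14.6%, with all 3 libraries below the parental ones, and the regulatory sum by −0.289%. The sums weigh abundant members most.

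The ratio of the 2 sums is free of the scaling of a library. The log2 ratio of regulatory to core sum was 0.89, 0.86 and 0.75 in the parental libraries, 1.02, 1.12 and 1.02 in MITF KO and 1.14, 0.93 and 1.10 in TFEB/TFE3 DKO. Both lines lay above the parental libraries, by 0.22 and 0.22 on average. In MITF/TFE3 DKO the ratio was 0.60, 0.72 and 0.76, by −0.14 on average from parental, and overlapped it. MITF/TFEB DKO and TKO both differed from parental by 0.07, and TFE3 KO and TFEB KO by −0.07 and 0.02; all 4 overlapped the parental libraries. With the within-line axis taken out the differences were 0.17 in MITF KO, 0.16 in TFEB/TFE3 DKO and −0.07 in MITF/TFE3 DKO. As a ratio over members it carries no test here.

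**Figure D4:**
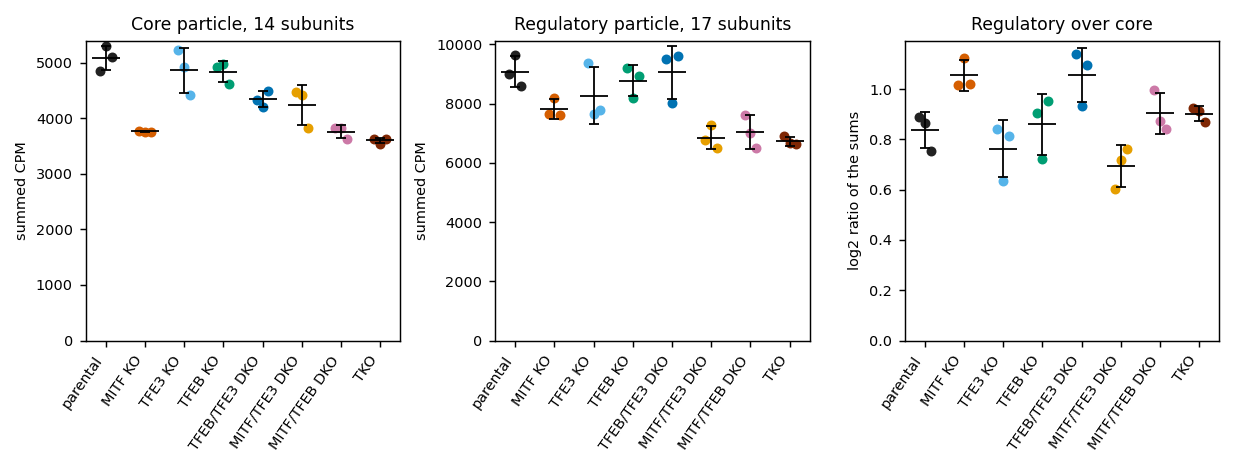
Summed CPM of the 14 core members, summed CPM of the 17 regulatory members and the log2 ratio of regulatory to core sum, by line; points are libraries, lines the mean and bars 1 SD (n = 3). The core sum is lowest in MITF KO, MITF/TFEB DKO and TKO, the regulatory sum in MITF/TFE3 DKO, in MITF/TFEB DKO and in TKO, and the ratio is highest in MITF KO and TFEB/TFE3 DKO.

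The counts of calls are given without a test between the particles. Of all genes 17.8% fell in MITF KO, 21.7% in MITF/TFE3 DKO, 27.3% in MITF/TFEB DKO and 27.9% in TKO. In the last 3 of these lines 20.2%, 28.8% and 28.3% of all genes rose. In MITF KO 10 of 14 core members fell with a median of −0.51, and 8 of 17 regulatory members with a median of −0.18. For MITF/TFE3 DKO, 5 core members fell (median −0.22), against 10 regulatory members that fell and 1 that rose (median −0.31). In MITF/TFEB DKO the counts were 9 of 14 (median −0.43) against 10 of 17 with 1 that rose (median −0.355), and in TKO 8 of 14 (median −0.45) against 12 of 17 with 1 that rose (median −0.255). With the axis taken out the falls in MITF KO were 13 of 14 and 13 of 17, beside 28.5% of 9539 genes. In TFEB/TFE3 DKO, where 4.09% of all genes fell, all 14 core members lay below parental with a median of −0.25. Of these 2 were called (Psma2, −0.40, and Psma7, −0.28), while the regulatory median was −0.05. Without parental replicate 2 neither was called (adjusted p = 0.0541 and 0.0881), nor without TFEB/TFE3 DKO replicate 1 (0.0614 and 0.0738), and Psma7 also lost its call without parental replicate 3 or TFEB/TFE3 DKO replicate 2.

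The assembly chaperones and the activators followed their own courses. Of the core chaperones, Psmg3 fell in all 4 lines without MITF (by 0.41, 0.43, 0.62 and 0.49 on the log2 scale) and in TFEB/TFE3 DKO (by 0.37), from 128, 138 and 154 CPM to 82.4 to 98.3 in MITF/TFEB DKO. Psmg2 rose in MITF/TFE3 DKO (74.4, 58.2 and 67.7 CPM against 47.9, 50.6 and 51.7; 0.40, adjusted p = 0.0458) and TKO (68.6, 65.6 and 66.8; 0.41, adjusted p = 0.0307). Each of these calls was lost without some library, for TKO with an adjusted p between 0.0556 and 0.0846 in 5 of 6 cases. Psmg4 fell in TFEB/TFE3 DKO (43.7, 44.1 and 42.7 CPM against 52.9, 60.8 and 63.4; −0.43, adjusted p = 0.00687) and MITF/TFEB DKO (−0.29, adjusted p = 0.0159), and Psmg1 was called in no line. The fall of Psmg4 in MITF/TFEB DKO was not called without parental replicate 2, parental replicate 3 or MITF/TFEB DKO replicate 1 (adjusted p = 0.0551 to 0.0809), nor that of Psmg3 in TFEB/TFE3 DKO without parental replicate 3 (0.0752) or TFEB/TFE3 DKO replicate 1 (0.0533).

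Among the base chaperones, Psmd5 fell to 21.6, 21.0 and 20.6 CPM in MITF KO from 37.8, 40.8 and 40.6 (−0.88 ± 0.11, limma, adjusted p = 8.32e-07), and less in MITF/TFEB DKO (−0.51) and TKO (−0.36). Psmd9 and Psmd10 fell in the other 3 lines without MITF, by 0.60, 0.42 and 0.66 and by 0.50, 0.49 and 0.70, and were not called in MITF KO. Psmf1, which can inhibit the core, measured 83.6, 96.6 and 76.5 CPM in parental cells, 64.9, 52.0 and 47.8 in MITF/TFEB DKO and 48.2, 46.3 and 43.6 in TKO. It fell there by 0.64 (adjusted p = 0.000184) and 0.87 (adjusted p = 3.54e-06), with no overlap of libraries. The nuclear activator Psme3 fell in TKO (−0.23, adjusted p = 0.0291) and the activator Psme4 in MITF/TFEB DKO (−0.31, adjusted p = 0.0313). Psme3 kept its call only without parental replicate 3 or TKO replicate 1 and Psme4 only without parental replicate 2, and the calls of Psmd9 in MITF/TFEB DKO and Psmd10 in MITF/TFE3 DKO were lost without parental replicate 2 (0.081 and 0.0589), that of Psmd9 also without MITF/TFEB DKO replicate 2 (0.0553) or 3 (0.0748).

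The 3 genes that share only the symbol differed from the subunits. Psme2b, whose 3′ end shares 68.9% of its 50-base words with the interferon-induced Psme2, measured 24.8, 23.2 and 21.7 CPM in parental cells, 9.98, 9.6 and 9.43 in MITF KO and 46.8, 46.9 and 40.1 in MITF/TFEB DKO. It fell by 1.18 in MITF KO and rose by 0.91 in MITF/TFEB DKO on the log2 scale (adjusted p = 4.08e-08 and 8.81e-07). Psme2 itself went from 62.3, 62.2 and 73.8 CPM to 23.6, 17.4 and 21.2 in MITF KO and to 147, 157 and 159 in MITF/TFEB DKO. How reads that match both were counted is not given in the sources used here. Psme2b also fell in TFE3 KO (−0.68), TFEB KO (−0.96) and TFEB/TFE3 DKO (−0.60). Psmc3ip, a partner of recombinases in meiosis, rose in TFE3 KO (24, 31.3 and 22.8 CPM against 17.2, 18.5 and 19.3; 0.47, adjusted p = 0.0121), a call lost without parental replicate 1 (adjusted p = 0.0584) or TFE3 KO replicate 2 (0.114). Psme3ip1, which binds the activator Psme3, rose by 0.37 in TFEB KO and in TFEB/TFE3 DKO (adjusted p = 0.00293 and 0.00229), and by 0.21 in MITF/TFE3 DKO (0.0247), where the call was lost without parental replicate 1 or 2 or MITF/TFE3 DKO replicate 1 (0.0801, 0.0808 and 0.0884) and with neighbours subtracted (−0.10).

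Neighbouring genes moved with several of the members. For each member the median log2 fold change of the 100 nearest genes with a mean of at least 5 CPM was taken (gene positions on GRCm39). On chromosome 12 these medians were −0.58 for Psma6 and −0.49 for Psmc1 in MITF/TFEB DKO and −0.53 and −0.48 in TKO, and on chromosome 2 they were −0.31 for Psmb7, Psmd14 and Psmd5 in MITF KO. On chromosome 7 they were −0.28 for Psmd13, −0.33 for Psmc4 and −0.34 for Psmd8 in MITF/TFE3 DKO. Around Psmd1 they were 0.17, 0.30 and 0.31 in MITF/TFE3 DKO, in MITF/TFEB DKO and in TKO. Over the 44 members the medians ran from −0.58 to 0.30 in MITF/TFEB DKO, with a middle value of −0.15, and from −0.34 to 0.14 in MITF KO, with a middle value of −0.04. DNA copy number was not measured in these libraries, and its part in these differences was not tested.

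With the neighbours' median subtracted, 19 members were called in either direction in MITF KO, 15 in MITF/TFE3 DKO, 22 in MITF/TFEB DKO and 22 in TKO. Of the 11659 genes with a position, 35.7%, 36.8%, 49.7% and 50.1% were called in either direction, near the shares of members. These shares join rises and falls, unlike those given by direction for the main test, so they do not compare the falls alone. Psma6 then stood at −0.59 and −0.66 and Psmc1 at −0.62 and −0.76 in MITF/TFEB DKO and TKO, still called. Psmb7 stood at −0.67 in MITF KO and Psmb6 at −0.55 and −0.65 in MITF/TFEB DKO and TKO, also called. The rise of Psmd1 shrank to 0.09, 0.07 and 0.05 and was no longer called in any of the 3 lines. The rises of Psmd7 in TFEB KO and TFEB/TFE3 DKO became 0.09 and −0.01, the fall of Psmd2 in TFE3 KO became −0.03, and the rises of Psme3ip1 became 0.12 and 0.02, none of them called.

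**Figure D5:**
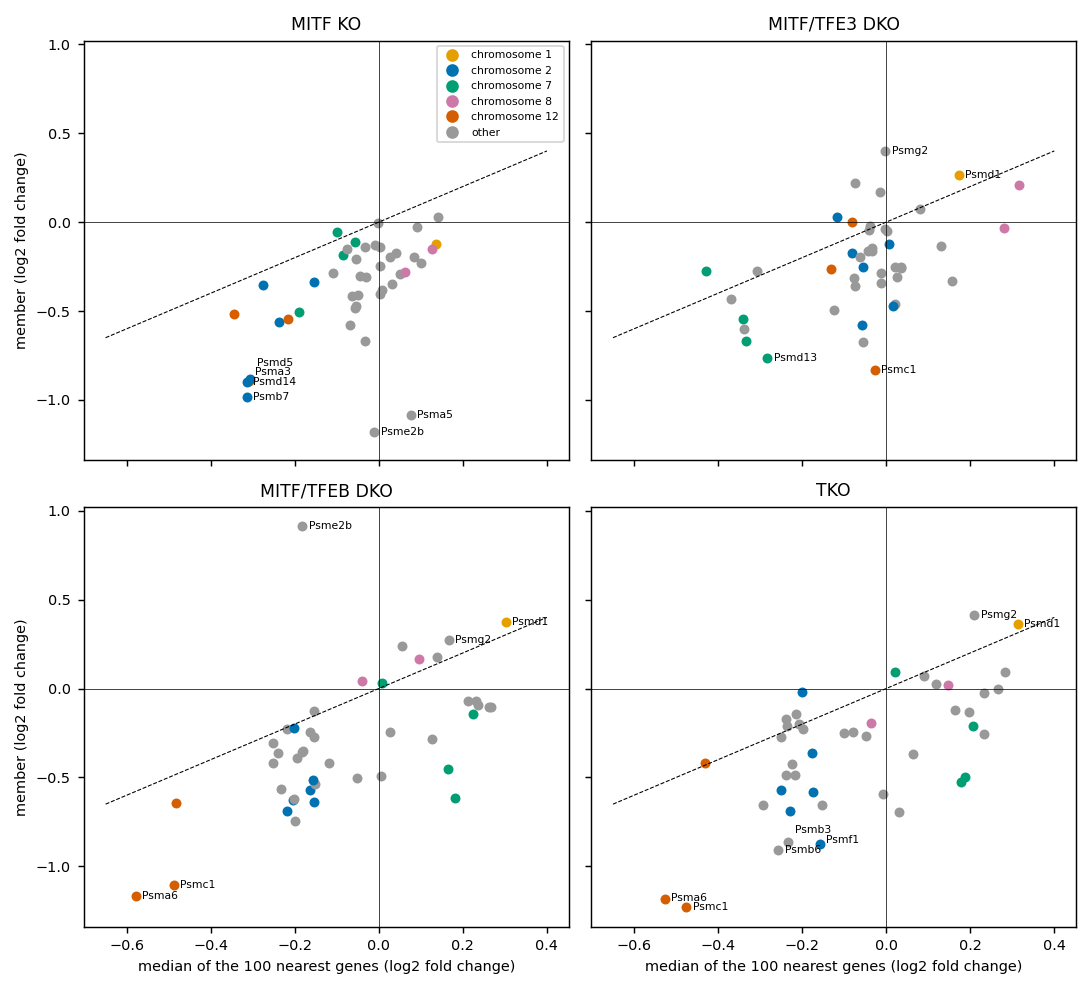
Log2 fold change against parental of each member (vertical axis) and the median log2 fold change of its 100 nearest genes (horizontal axis) in the 4 lines without MITF; points are members, coloured by chromosome, and the dashed line marks equal values. Most points lie below the dashed line; Psma6 and Psmc1 have the neighbours with the lowest medians in MITF/TFEB DKO and TKO, and Psmd1 lies near the line.

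Lines that had lost a further factor on top of MITF differed from MITF KO in both directions. Against MITF KO, 15 members rose and 4 fell in MITF/TFE3 DKO, where 18.1% of all genes rose and 19.7% fell. In MITF/TFEB DKO 11 rose and 7 fell (25.1% and 23.9%), and in TKO 12 rose and 12 fell (26.1% and 23.9%). Without MITF KO replicate 2, the lowest library on the within-line axis, 11 members were called in MITF/TFE3 DKO and 15 in TKO. Among the subunits Psma5 had the largest rise in each line, at 1.15, 0.99 and 1.18, and Psmd14 rose by 0.93 in MITF/TFE3 DKO and 0.88 in TKO. None of these 5 calls held without MITF KO replicate 2, where the adjusted p lay between 0.0612 and 0.131. The core subunit Psmb2 rose by 0.82 in MITF/TFEB DKO and 0.65 in TKO, also lost without that library (adjusted p = 0.069 and 0.186). Psmb2 shares 19.1% of its 3′ 50-base words with other genes. Psma3 rose by 0.89 in MITF/TFE3 DKO and Psmb5 by 0.59 in MITF/TFEB DKO, while Psme2b was higher in all 3 lines, by 0.98, 2.09 and 0.98. The falls concerned Psma6 (−0.65 in MITF/TFEB DKO and −0.66 in TKO), Psmc1 (−0.56 and −0.69), Psmb1 (−0.53 and −0.62) and, in TKO, Psmb6 (−0.62). Psmd13 fell by 0.65, Psmd8 by 0.49, Psmc4 by 0.49 and Psmc6 by 0.19 in MITF/TFE3 DKO relative to MITF KO, and Psmd8 by 0.56 in MITF/TFEB DKO; the call of Psmc6 was lost without 5 of the 6 libraries.

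Between the DKO lines, 10 members were lower and 3 higher in MITF/TFEB DKO than in MITF/TFE3 DKO, beside 22.4% and 25.5% of all genes, and 8 were called without MITF/TFE3 DKO replicate 1. Of the 10, 6 belong to the core. Psma6 differed by −0.90 ± 0.09 (limma, adjusted p = 2.57e-08), Psma3 by −0.64, Psmf1 by −0.51 and Psmb6 by −0.49 ± 0.09 (adjusted p = 9.56e-05), while Psmc4 was higher by 0.53 and Psmd2 by 0.18. With neighbours subtracted these last 2 turned to −0.03 and −0.01 and were not called. The call of Psmd2 was lost without MITF/TFE3 DKO replicate 1 or 3 or MITF/TFEB DKO replicate 1 (adjusted p = 0.0757, 0.0681 and 0.0959).

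Differences between lines that had lost TFEB or TFE3 and those that had not were compared between cells without and with MITF. The contrast was the difference without MITF minus that with it. Each difference also holds whatever else sets the clones apart, so a dependence on MITF itself cannot be told apart here. For TFEB 11 members passed (6 positive, 5 negative), beside 35.1% of all genes, and for TFE3 6 members (5 positive, 1 negative), beside 20.2%. For Psmb6, MITF/TFEB DKO differed from MITF KO by −0.45 and TFEB KO from parental cells by −0.01, a contrast of −0.44 ± 0.13 (limma, adjusted p = 0.00846). Psma6 gave −0.62 ± 0.13 (adjusted p = 0.000631) and Psmb5, in the other direction, 0.73 ± 0.19 (adjusted p = 0.00391). These counts fell to 6 for TFEB without MITF KO replicate 2, parental replicate 3 or TFEB KO replicate 1 and to 7 without MITF/TFEB DKO replicate 3. For TFE3 they fell to 3 without parental replicate 2 or MITF/TFE3 DKO replicate 1 and to 2 without MITF/TFE3 DKO replicate 2. With neighbours subtracted 5 and 3 members passed, beside 28.3% and 15.8% of all genes.

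Genes that serve the proteasome without being members were read from 3 lists. Of 15 other proteasome genes (Paaf1 was not analysed here), 1 rose and 2 fell in MITF KO, beside 20.1% and 17.8% of all genes. In MITF/TFE3 DKO 2 rose and 5 fell (20.2% and 21.7% of all genes). In MITF/TFEB DKO 1 rose and 8 fell (28.8% and 27.3%), and in TKO 2 rose and 3 fell (28.3% and 27.9%). In the lines with MITF 1 rose in TFE3 KO (4.5% of all genes) and 1 in TFEB/TFE3 DKO (4.72%). None was called in TFEB KO, where 2.25% of all genes rose and 2.59% fell. Pomp, the chaperone that completes the core, measured 1307, 1394 and 1116 CPM in parental cells and fell to 891, 1016 and 802 in MITF/TFE3 DKO (−0.49, adjusted p = 0.00804) and 837, 914 and 784 in MITF/TFEB DKO (−0.59, adjusted p = 0.00136); it was not called in MITF KO or TKO. Zfand5, which binds and stimulates the proteasome, fell from 126, 122 and 143 CPM to 61.1, 56.5 and 61.0 in TKO (−1.11, adjusted p = 2.84e-10), and the ubiquitin shuttle Ubqln1 rose in all 4 lines without MITF (0.72, adjusted p = 1.5e-07, in TKO) and also in TFE3 KO (0.30, adjusted p = 0.0205), where the call was lost without parental replicate 1 or 2 or TFE3 KO replicate 2 (0.0687, 0.0891 and 0.114). The ubiquitin receptor Adrm1 fell in MITF/TFEB DKO (−0.27, adjusted p = 0.0131) and shares 83.7% of its 3′ words with Adrm1b. That call was lost without MITF/TFEB DKO replicate 1 (adjusted p = 0.0798) or 3 (0.0558), and with neighbours subtracted neither it nor the fall of Pomp in MITF/TFE3 DKO was called (−0.04 and −0.13).

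On the NRF1 route, 6 of 7 listed genes were in the table. Nfe2l1 rose in each line without MITF: from 65.6, 63.5 and 70.4 CPM in parental cells to 88.5, 90.2 and 92.0 in MITF KO, 90.8, 86.3 and 100.2 in MITF/TFE3 DKO, 99.98, 104 and 111 in MITF/TFEB DKO and 83.6, 90.6 and 92.2 in TKO, without overlap. The log2 changes were 0.44, 0.47, 0.65 and 0.41 (adjusted p = 0.000298, 0.000131, 8.76e-07 and 0.000265), and it was called in no line with MITF. Nfe2l2, which encodes the related factor NRF2, fell in the same 4 lines, by 0.68, 0.57, 0.57 and 0.62. Among the listed genes that supply and activate ubiquitin, Rps27a fell in MITF KO (−0.88, adjusted p = 0.0408) and Uba1 rose in MITF/TFEB DKO (0.32, adjusted p = 0.0141), and none was called in TKO or the lines with MITF. Rps27a was not called without MITF KO replicate 2 (adjusted p = 0.216), parental replicate 2 (0.0596) or parental replicate 3 (0.165), nor Uba1 without MITF/TFEB DKO replicate 2 (0.063) or parental replicate 3 (0.0554), and with neighbours subtracted Uba1 stood at −0.15. The interferon-induced genes that the rule left out all fell in MITF KO (median −1.42), where 17.8% of all genes fell. In MITF/TFEB DKO 3 of the 4 rose, beside 28.8% of all genes.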

How the data were processed

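Messenger RNA was read by QuantSeq Forward 3′ sequencing in 24 libraries, 3 from each of 8 lines. According to the submitters' processing notes and the methods, the authors checked reads with FastQC 0.11.9, trimmed them with Trim Galore 0.6.5 and cutadapt 2.10, aligned them to mm39 with STAR 2.7.8a and normalised with edgeR; how reads were counted (tool, strand setting and gene models) and how the 12010 genes were selected is not given in the sources used here. The deposited signal values are CPM scaled by TMM factors (0.925 to 1.07). Whole reads were recovered from their steps, with at least 99.98% of values whole to within 0.02 reads, which gave the depth of each library.

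The unit differed from the plain table of counts or CPM that had been assumed, and the planned main test was kept. It was limma 3.58.1 (R 4.3.3) with an intensity trend on log2(CPM + 1), all 24 libraries, a term for line and 16 residual degrees of freedom. Pairs of lines and the differences between effects were contrasts of that fit, adjusted by Benjamini-Hochberg over 12010 genes. edgeR 4.0.16 quasi-likelihood on the recovered reads was an alternative, as were a pseudocount of 0.25, a filter at a mean of 5 CPM (9539 genes), other scalings, only the libraries compared, a replicate block, subtraction of the median of the 100 nearest genes (11659 genes with a position), each library left out, and, chosen after seeing the data, removal of the main axis within lines. Drawn from the real means with MITF KO against parental in view, simulated counts of 12010 genes gave calls for 35.8% of genes changed 1.25 times, 93.4% at 1.5 times and 100% at 2 times, and for 0.0762% of unchanged genes. The simulated counts had the same dispersion for every gene and no shared axis within lines. These rates therefore need not hold for the real libraries, which varied along such an axis.

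In each comparison the rule for naming took the 4 called members with the largest rise and the 4 with the largest fall whose libraries do not overlap, always Psmb5, Psmb6, Psmb7, Psmd14 and Psmd4, the chaperones, activators and inhibitor as a group and the genes matched by symbol only, and of the other lists at most 3 a direction with Nfe2l1, Pomp and Adrm1. Other members named (Psma2, Psma4, Psma7, Psmc2, Psmc3, Psmc6, Psmd7, Psmd11 and those in counts) were chosen after their values were seen. The members, lists and tests were chosen with earlier results of these data known. A result for 1 gene of the ubiquitin list is not reported here. Sequence sharing was counted in 50-base words of the last part of GENCODE vM39 transcripts. Tables and figures were made with Python 3.11.15, numpy 2.4.6, pandas 2.3.3 and matplotlib 3.10.9.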

Additional observations from a re-analysis of the deposited data

Results flagged for a closer look

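Differences in effect between cells with and without MITF passed for 11 of 44 members after TFEB loss and for 6 after TFE3 loss. Of all genes 35.1% and 20.2% passed, so neither share of members was above that of all genes. The test was limma, at an adjusted p under 0.05 for the difference itself. The lines share the parental and MITF KO libraries between these tests. Each value is the log2 effect without MITF minus the log2 effect with MITF. An effect here is a difference between lines, which also holds whatever else sets the clones apart.

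After TFEB loss the core subunits gave 0.49 for Psma2 (adjusted p = 0.00722), 1.41 for Psma5 (0.0392), −0.62 for Psma6 (0.000631), −0.38 for Psmb1 (0.0238), 0.73 for Psmb5 (0.00391) and −0.44 for Psmb6 (0.00846). Of the regulatory particle, Psmc1 gave −0.62 (0.0252), Psmd1 0.41 (0.0177) and Psmd3 −0.31 (0.0163). The base chaperone Psmd5 gave 0.43 (0.0338), and Psme2b, which shares sequence with Psme2, gave 3.06 (8.36e-13). Psma5 scored highest of the members on the within-line axis, and with that axis taken out its difference was 0.55. The differences of Psmc1, Psmb1, Psma5, Psmd1 and Psmd5 each lost their call without parental replicate 3, at adjusted p = 0.0588, 0.0503, 0.0975, 0.0509 and 0.0656, and that of Psmd3 without parental replicate 1 (0.0521). Each of these calls was also lost without some library of a KO line.

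After TFE3 loss Psma2 gave 0.44 (adjusted p = 0.0242), Psmb7 0.65 (0.0431), Psmd7 0.35 (0.0216), Psmd8 −0.42 (0.0195), Psme2b 1.67 (8.54e-08) and Psme3ip1 0.30 (0.0414). The call of Psmb7 was lost without parental replicate 2 (0.0506) or 3 (0.125), that of Psma2 without parental replicate 2 (0.0614), that of Psmd8 without parental replicate 1 (0.0567), and that of Psme3ip1 without any of the 3 parental replicates (0.0515, 0.0532 and 0.106). Psmd7 lost its call without MITF KO replicate 1 (0.056) or TFE3 KO replicate 3 (0.0547). The calls of Psmb7, Psma2, Psmd8 and Psme3ip1 were each also lost without some library of a KO line.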

How the results depend on the processing

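Of 116 pairs of a named member and a comparison, 113 kept their direction and their side of the threshold with edgeR, 116 with a pseudocount of 0.25 and with the filter at a mean of 5 CPM, 115 with median-of-ratios size factors, 113 without TMM, 103 with only the libraries compared, 79 with neighbours subtracted and 106 with the within-line axis taken out. Without TMM the median of all genes moved to 0.11 in MITF/TFEB DKO and 0.10 in TKO and those of the members to −0.22 and −0.16; the calls were then 4 higher and 19 lower in MITF/TFEB DKO, and against MITF KO 14 and 5 in MITF/TFEB DKO and 15 and 8 in TKO. The interaction for TFEB then had 8 positive of 12, and that for TFE3 5 of 7 with median-of-ratios size factors. TFE3 KO had 2 higher and 2 lower with edgeR and with median-of-ratios size factors.

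With only the libraries compared, 1 member was called in TFE3 KO, 1 in TFEB KO and 8 between the DKO lines. With neighbours subtracted, 2 were called in TFEB KO, 5 in TFEB/TFE3 DKO, 5 in the interaction for TFEB and 3 in that for TFE3. That setting turned the sign of Psmc4 (−0.031) and Psmd2 (−0.013) between the DKO lines, Psmd7 in TFEB/TFE3 DKO (−0.0078) and Psme3ip1 in MITF/TFE3 DKO (−0.10). With the axis taken out, 34 members were called in MITF KO, 6 in TFE3 KO, 9 in TFEB KO, 16 in TFEB/TFE3 DKO, 21 between the DKO lines, 17 and 18 in the interactions for TFEB and TFE3, and Psmd14 in MITF/TFE3 DKO turned to −0.39. That fit counts its degrees of freedom too generously. It called 54.1% of 9539 genes in MITF KO, and shares of all genes were not taken for its other comparisons. Nor were they taken for edgeR, the other scalings, only the libraries compared, or neighbours subtracted in TFEB KO and TFEB/TFE3 DKO. Those counts of members cannot be set against all genes. Taken as the difference of member medians, the regulatory minus core value was 0.33 in MITF KO and 0.20 in TKO. The cause of these shifts was not tested.

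Leaving out each library in turn, calls ranged from 17 to 19 in MITF KO, 2 to 5 in TFE3 KO, 2 to 5 in TFEB KO, 4 to 9 in TFEB/TFE3 DKO, 14 to 21 in MITF/TFE3 DKO, 24 to 26 in MITF/TFEB DKO and 22 to 25 in TKO. Against MITF KO they ranged from 11 to 18 in MITF/TFE3 DKO, 13 to 22 in MITF/TFEB DKO and 15 to 23 in TKO, between the DKO lines from 8 to 13, in the interactions from 6 to 16 for TFEB and 2 to 8 for TFE3, and over the 8 lines from 38 to 42. The log2 ratio of the particles minus parental ranged from 0.18 to 0.25 in MITF KO, −0.11 to −0.01 in TFE3 KO, −0.02 to 0.09 in TFEB KO, 0.18 to 0.28 in TFEB/TFE3 DKO, −0.18 to −0.09 in MITF/TFE3 DKO, 0.02 to 0.10 in MITF/TFEB DKO and 0.03 to 0.09 in TKO.

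Libraries with the same replicate number shared only that number: the mean correlation of their deviations was 0.0222 (−0.66 to 0.77), against −0.0126 for other numbers. With the replicate number as a block 22 members were called in MITF KO and 28 in TKO. None of the 116 pairs of a named member and a comparison changed direction or side of the threshold. Changes under 1.5 times were often below what 3 libraries a line could show.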
